A study of Mus musculus with 8 samples.

Results

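Glucocorticoid response genes are described here as 10 genes of the 54232 in the count tables, chosen by their symbols. Earlier results of these data were known when the genes were chosen. They are the receptors Nr3c1 and Nr3c2, the receptor's feedback inhibitor Fkbp5, and 7 genes known to respond to the hormone, namely Tsc22d3, Sgk1, Zbtb16, Per1, Pdk4, Hif3a and Cdkn1a. Their levels were followed across cell types of the forebrain and across 4 surgical groups of male Swiss Webster mice aged 10 weeks. The mice underwent control surgery, BCAS, TBI, which stands for traumatic brain injury, or both as BCAS+TBI, with 2 libraries per group that the titles number as biological replicates. BCAS appears in the labels as an abbreviation that the study's title ties to cerebral hypoperfusion. The labels do not say what control surgery consisted of, how many animals a library holds, or how long after surgery the tissue was taken. All groups share strain, sex and age, and all tissue was a cube with edges of 2 mm cut beside the lesion site and frozen. Nuclei were isolated from it and sequenced from the 3′ end on the 10x Genomics platform, which tags each captured RNA molecule with a unique molecular identifier (UMI).

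Glucocorticoids, mainly corticosterone in mice, cross the cell membrane and bind a receptor held in the cytoplasm by chaperones. The glucocorticoid receptor, encoded by Nr3c1, and the mineralocorticoid receptor, encoded by Nr3c2, then enter the nucleus and bind DNA at response elements near their target genes. Nr3c2 has the higher affinity for the hormone and is known for its abundance in hippocampal neurons, whereas Nr3c1 is present in most brain cells. Fkbp5 encodes a co-chaperone that lowers the receptor's affinity for hormone, and its own transcription is raised by the receptor, which closes a short feedback loop.

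The response element is a pair of 6-base sites in opposite orientation, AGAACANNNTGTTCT. It was searched, on both strands and without mismatch, in windows from 250 bases before to 50 after the start of each RefSeq transcript (GRCm38.p6), of which 17 belonged to 8 of the 10 genes. The full element was present in 3 of 32851 windows, or 0.00913%, and 1 of these belonged to Sgk1. The 250 bases of that window before the start are shown, because the window is the single match among those of these genes. These bases lie upstream of a start of Sgk1 on the plus strand, at chr10:21993640-21993889. The element, in capitals, ends 174 bases before the start site.

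Sgk1 promoter: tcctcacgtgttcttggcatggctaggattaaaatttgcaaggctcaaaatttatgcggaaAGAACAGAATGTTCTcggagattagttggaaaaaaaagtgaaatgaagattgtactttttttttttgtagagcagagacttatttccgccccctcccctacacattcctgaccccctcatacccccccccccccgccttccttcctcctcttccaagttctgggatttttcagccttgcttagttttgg

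The single site AGAACA, which lies inside the full element, was far more common and was found in 19.0% of all windows and in 4 of the 17, all of Sgk1 or Tsc22d3. The E-box CACGTG, which the circadian clock proteins bind, was found in 7.15% of all windows and in 3 of the 17, those of Fkbp5, Per1 and Sgk1. These matches describe letters in the windows and show no binding. In GRCm38 (GENCODE M21), Fkbp5 spans chr17:28399094-28517527 on the minus strand, Sgk1 chr10:21882184-21999903 on the plus strand, Tsc22d3 chrX:140539528-140600659 on the minus strand and Zbtb16 chr9:48654297-48836222 on the minus strand. Per1 spans chr11:69095217-69109960 (plus), Nr3c2 chr8:76899442-77245012 (plus), Hif3a chr7:17031507-17062427 (minus), Pdk4 chr6:5483351-5496309 (minus) and Cdkn1a chr17:29090976-29100727 (plus). Other annotated genes overlap Fkbp5 and Nr3c2 on both strands, and Hif3a and Cdkn1a on the opposite strand only. How reads in those overlaps were assigned was not tested.

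Of 53390 barcodes, 48468 passed filters on UMIs, genes and mitochondrial share, and 40989 were assigned by marker genes to neurons (33383), astrocytes (3190), oligodendrocytes (2522) or vascular cells (1894). Levels are given in CPM, the counts of a gene after scaling every class and library to the same usual total, and since capture differs between genes, levels are compared between classes and libraries and not between genes. The markers on which the gates rest were summed, and those of neurons reached 12105 to 13488 CPM in neurons and at most 2043 CPM in the other 3 classes, those of astrocytes 19441 to 24318 against at most 1622, those of oligodendrocytes 20325 to 24581 against at most 717, and endothelial markers 9385 to 14204 CPM in vascular cells against at most 100.5 elsewhere. Haemoglobin transcripts, which mark red blood cells, were among the top genes of the vascular class and summed to 1048 to 33861 CPM there. The libraries fell into 2 sets by depth, each with 1 library of every group. Set 1 (control 1, BCAS 1, TBI 1, BCAS+TBI 2) held 28118725 to 33363564 UMIs per library, and set 2 (control 2, BCAS 2, TBI 2, BCAS+TBI 1) held 42651388 to 56135192. Set 1 also had the larger mitochondrial shares, 1.2 to 2.77% against 0.511 to 1.04% of UMIs. Library pairs shared 5 to 20 barcodes, at most 0.321% of the smaller library.

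**Figure D1:**
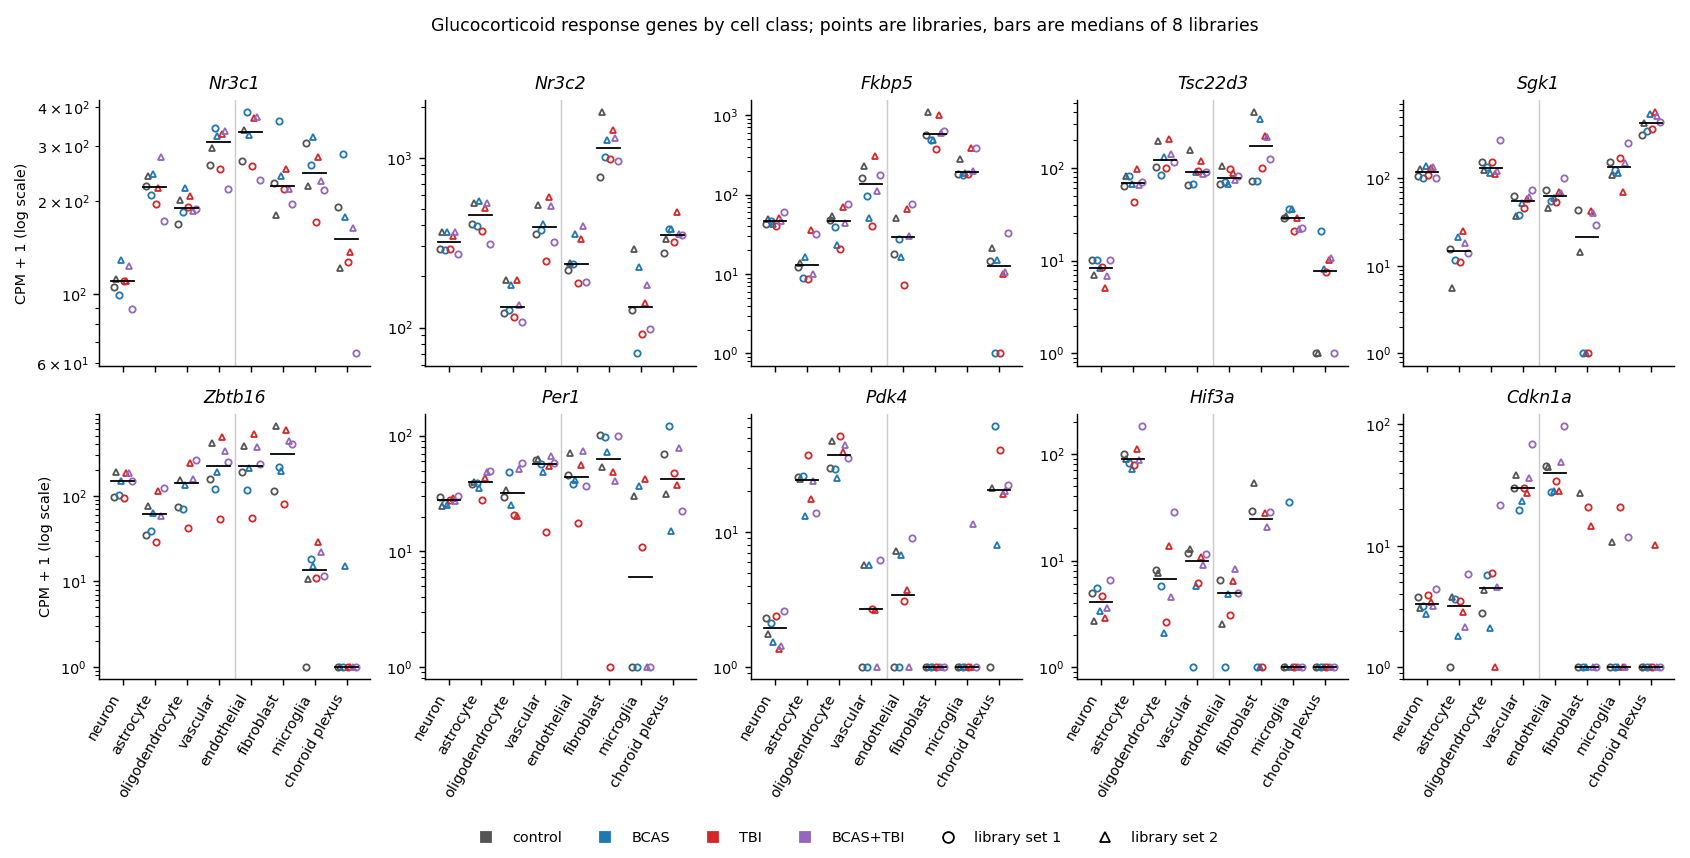
Levels of the 10 genes in 8 marker-gated classes. Each panel is 1 gene, the vertical axis is CPM + 1 on a log scale, points are the 8 libraries coloured by group, circles are library set 1, triangles are set 2, and bars are medians. Hif3a peaked in astrocytes, Sgk1 in choroid plexus and Fkbp5 in fibroblasts and microglia, while Nr3c1 was present in every class shown. Among neurons, astrocytes, oligodendrocytes and vascular cells, Pdk4 was highest in oligodendrocytes.

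Most of the genes differed between cell classes. In a model of the 4 main classes with library as a block (edgeR), 33 of 40 gene-by-class tests against the mean of the other classes passed an adjusted p of 0.05. Differences of this kind were common: 78.0% of the 12535 genes tested passed for neurons, 62.5% for astrocytes, 56.5% for oligodendrocytes and 75.4% for vascular cells. Of the 10 members, 9 passed for neurons, 9 for astrocytes, 5 for oligodendrocytes and 10 for vascular cells. Differences between classes are given below as log2 fold with their standard error (SE).

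The receptors were detected in all classes, and their order across classes differed. Nr3c1 was lowest in neurons, where control libraries held 104 and 111 CPM, BCAS libraries 98.2 and 128, TBI libraries 109.5 and 109, and BCAS+TBI libraries 122 and 88.8. Vascular cells held 293 ± 45.8 CPM of Nr3c1 (SD, n = 8 libraries), astrocytes 221 ± 32.1 and oligodendrocytes 192 ± 15.7. No neuronal value reached the lowest value of the other 3 classes, and the fitted neuronal level was 0.96 lower on the log2 scale than the mean of those classes (log2 fold -0.96, SE 0.06, adjusted p = 1.25e-17). Astrocytes and oligodendrocytes, neighbours in the order, did not differ in Nr3c1 beyond their spread (adjusted p = 0.101). Of 33383 neuronal nuclei, 8138 were typed as excitatory and 4869 as inhibitory, and the rest were left untyped. A type needed at least 3 UMIs of its markers and at least 5 times those of the other type. Typed excitatory nuclei had a median of 8535 UMIs and inhibitory nuclei 6548, against 6072 for all neurons. Among typed neurons, Nr3c1 was higher in excitatory nuclei (125 ± 16.9 CPM) than in inhibitory nuclei (67.2 ± 8.56 CPM), with a log2 fold of 1.01 (SE 0.06, adjusted p = 5.27e-28) and no overlap between the 8 pairs of values.

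Nr3c2, the mineralocorticoid receptor, had another order, with oligodendrocytes lowest among the main classes. Oligodendrocytes held 145 ± 34.7 CPM of Nr3c2 (SD, n = 8), neurons 322 ± 42.2, vascular cells 416 ± 116 and astrocytes 453 ± 93.0. The oligodendrocyte level was below the mean of the other classes (log2 fold -1.35, SE 0.08, adjusted p = 2.43e-17), and the astrocyte level was above it (0.78, SE 0.07, adjusted p = 6.81e-13). Neurons and vascular cells did not differ in Nr3c2 beyond their spread (adjusted p = 0.413). A second model of 10 finer classes, added after the levels had been seen, tested 8 of the 10 genes. In it vascular fibroblasts had the highest Nr3c2 level, 768 to 1849 CPM, and exceeded each of the other 9 classes, the nearest being astrocytes at a log2 fold of -1.06 (SE 0.11, adjusted p = 3.39e-15).

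Fkbp5, the co-chaperone of the feedback loop, was highest in 2 small classes that hold few of the nuclei. In fibroblasts it was 569 and 1083 CPM in the control libraries, 479 and 479 in BCAS, 374 and 1007 in TBI, and 591 and 626 in BCAS+TBI. In microglia, the resident immune cells, Fkbp5 was 181 and 281 CPM in control, 173 and 184 in BCAS, 180.0 and 387 in TBI, and 199 and 387 in BCAS+TBI. Values in the other finer classes reached at most 133 CPM, below every microglial value, and fibroblasts exceeded microglia by a log2 fold of 1.54 (microglia against fibroblast -1.54, SE 0.18, adjusted p = 2.96e-12). Against the mean of the other 9 classes the log2 fold of Fkbp5 was 3.78 in fibroblasts (SE 0.15, adjusted p = 4.11e-41) and 2.08 in microglia (SE 0.20, adjusted p = 5.97e-16); in these classes 34.1% and 49.0% of the 8346 genes tested passed.

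The vascular class as a whole was the highest main class for Fkbp5 (log2 fold 1.89, SE 0.17, adjusted p = 2.42e-12). Fibroblasts, 317 of the 1894 vascular nuclei, gave 486 of its 613 Fkbp5 UMIs. Endothelial nuclei, which line the vessels and are 1253 of the 1894 vascular nuclei, held only 6.22 to 75.9 CPM of Fkbp5, with a log2 fold of -4.04 against fibroblasts (SE 0.20, adjusted p = 3.48e-34). The library BCAS 2 had the fewest fibroblasts, 18 of 247 vascular nuclei, and 49.1 CPM of Fkbp5 in the vascular sum, against 229 CPM in control 2, with 61 of 342. Astrocytes held the least Fkbp5 of the main classes, 16.2 ± 10.6 CPM (SD, n = 8; log2 fold -2.10, SE 0.23, adjusted p = 3.48e-10). Neurons (46.5 ± 6.32 CPM) and oligodendrocytes (45.9 ± 20.1 CPM) did not differ beyond their spread (adjusted p = 0.502).

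Tsc22d3, which encodes the glucocorticoid-induced leucine zipper and is a standard readout of receptor activity, was a gene of glia and vessels. In oligodendrocytes it was 101 and 195 CPM in control, 83.3 and 129 in BCAS, 99.9 and 206 in TBI, and 139.9 and 114 in BCAS+TBI. In neurons the 8 libraries ranged only from 4.10 to 9.28 CPM, below every value of the other main classes (log2 fold -3.63, SE 0.15, adjusted p = 1.34e-22). Neuronal Tsc22d3 was 1.99 to 10.9% of the oligodendrocyte level, where oligodendrocyte markers, which free RNA can bring into neuronal droplets, were 0.922 to 2.84% of theirs. In the finer classes fibroblasts held 71.1 to 396 CPM of Tsc22d3 and did not differ from oligodendrocytes beyond their spread (adjusted p = 0.13), whereas oligodendrocyte precursors, the dividing cells of the same lineage, held only 3 UMIs in all 8 libraries together.

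Sgk1 encodes a kinase that hormone and serum induce and that controls ion channels and transporters, and it is the gene whose window carries the full response element shown above. Among the main classes it was high in oligodendrocytes (147 ± 53 CPM, SD, n = 8) and neurons (116 ± 15 CPM), which did not differ beyond their spread (adjusted p = 0.0593). Vascular cells held 52.4 ± 12.8 CPM of Sgk1, and astrocytes 14.3 ± 6.16 CPM (log2 fold -2.76, SE 0.19, adjusted p = 1.05e-15). The astrocyte value was 3.70 to 18.7% of the neuronal one (median 12.9%), where neuronal markers, which free RNA can bring into astrocyte droplets, were 4.63 to 12% of theirs (median 7.67%). Choroid plexus, the epithelium that secretes cerebrospinal fluid, held 313 to 561 CPM of Sgk1 and exceeded each of the 9 other finer classes, the nearest by log2 fold being oligodendrocyte precursors (-1.21, SE 0.21, adjusted p = 4.74e-07). Choroid plexus Sgk1 had a log2 fold of 2.56 against the mean of the others (SE 0.16, adjusted p = 1.76e-27), where 54.7% of genes passed.

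Zbtb16, a zinc finger transcription factor also called PLZF, was highest in vascular cells (251 ± 150.2 CPM, SD, n = 8), and its libraries spread widely within each class. Endothelial nuclei held 189 and 384 CPM of Zbtb16 in control, 117 and 209 in BCAS, 53.9 and 529 in TBI, and 373 and 232 in BCAS+TBI. Fibroblasts did not differ from endothelial nuclei beyond their spread (adjusted p = 0.301). Neurons (143 ± 41.4 CPM) and oligodendrocytes (140.3 ± 79.1 CPM) were neighbours that did not differ (adjusted p = 0.258), and astrocytes were lowest of the main classes (66.1 ± 35.3 CPM, log2 fold -1.39, SE 0.15, adjusted p = 1.78e-10). Choroid plexus held 2 UMIs of Zbtb16 in all 8 libraries.

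Per1, a period gene of the circadian clock that glucocorticoids induce, differed least between the 4 main classes. Neurons held 26.6 ± 2.07 CPM (SD, n = 8), oligodendrocytes 34.9 ± 14.8, astrocytes 39.2 ± 7.04 and vascular cells 52.0 ± 16.4. The neuronal level of Per1 was lower than the mean of the other classes (log2 fold -0.49, SE 0.10, adjusted p = 4.36e-05), and no pair among astrocytes, oligodendrocytes and vascular cells differed beyond its spread. Among typed neurons, inhibitory nuclei were below excitatory nuclei, at 17.1 ± 1.51 against 27.8 ± 1.69 CPM (log2 fold of excitatory against inhibitory 0.79, SE 0.10, adjusted p = 7.27e-11).

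Pdk4 and Hif3a were, among the main classes, highest in glia. Pdk4 encodes a kinase that shuts off pyruvate dehydrogenase and so spares glucose, and Hif3a encodes a hypoxia-inducible factor subunit. Pdk4 in oligodendrocytes was 28.8 and 46.3 CPM in control, 28.5 and 24.1 in BCAS, 50.8 and 38.0 in TBI, and 43.0 and 34.2 in BCAS+TBI. Astrocytes held 21.7 ± 7.81 CPM of Pdk4 (SD, n = 8), lower than oligodendrocytes (log2 fold -0.80, SE 0.24, adjusted p = 0.00467), and neurons held at most 1.59 CPM. That neuronal level was 0.974 to 4.65% of the oligodendrocyte level, with oligodendrocyte markers at 0.922 to 2.84%. The part of free RNA in it was not tested. Choroid plexus held 0 to 60.1 CPM of Pdk4 from 18 UMIs in all, and fibroblasts held no UMI, which allows up to 4.79 CPM over the 8 libraries.

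Hif3a in astrocytes was 98 and 88.3 CPM in control, 81.6 and 71.4 in BCAS, 78.1 and 111 in TBI, and 87.5 and 182 in BCAS+TBI. No value of Hif3a in the other main classes exceeded 27.4 CPM, and the astrocyte log2 fold was 4.13 (SE 0.16, adjusted p = 1.1e-22). In neurons Hif3a was 1.69 to 5.49% of the astrocyte level and astrocyte markers were 2.53 to 4.19% of theirs. The part of free RNA in the neuronal value was not tested. Choroid plexus held no UMI of Hif3a, which allows up to 3.64 CPM.

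Cdkn1a encodes the cell-cycle inhibitor p21, which p53 as well as the glucocorticoid receptor induces. It was a vascular gene in this tissue, with 33.2 ± 15.3 CPM (SD, n = 8) in the vascular class and 2.46 ± 0.542 CPM in neurons (vascular log2 fold 3.30, SE 0.22, adjusted p = 9.89e-16). Of its 131 vascular UMIs, 118 came from endothelial nuclei. Astrocytes and neurons did not differ in Cdkn1a beyond their spread (adjusted p = 0.46).

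The question of the design was whether TBI, BCAS or their combination altered these genes. No member passed the test in any class for TBI averaged over BCAS, for BCAS averaged over TBI, for their interaction, or for BCAS+TBI against TBI or control. Of 40 gene-by-class pairs 35 had enough UMIs to be tested. The pairs not tested were Hif3a in oligodendrocytes and vascular cells, Pdk4 in vascular cells, and Cdkn1a in astrocytes and oligodendrocytes. Across all 52082 class-gene pairs, 6 passed for TBI (0.0115%), 1 for BCAS (0.00192%), 17 for the interaction (0.0326%), 3 for BCAS+TBI relative to TBI alone (0.00576%) and 1 for BCAS+TBI relative to control (0.00192%). The smallest adjusted p of a member in edgeR was 0.924. At an unadjusted p under 0.05 in edgeR, members numbered 2, 3, 6, 6 and 3 of 35 in the same order of contrasts. These are 5.71, 8.57, 17.1, 17.1 and 8.57% of the member pairs, against 4.36, 3.26, 4.76, 3.71 and 2.97% of all pairs. Pairs from the same libraries are not independent, and the difference in shares was not tested. DESeq2 called no member at the adjusted threshold either.

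**Figure D2:**
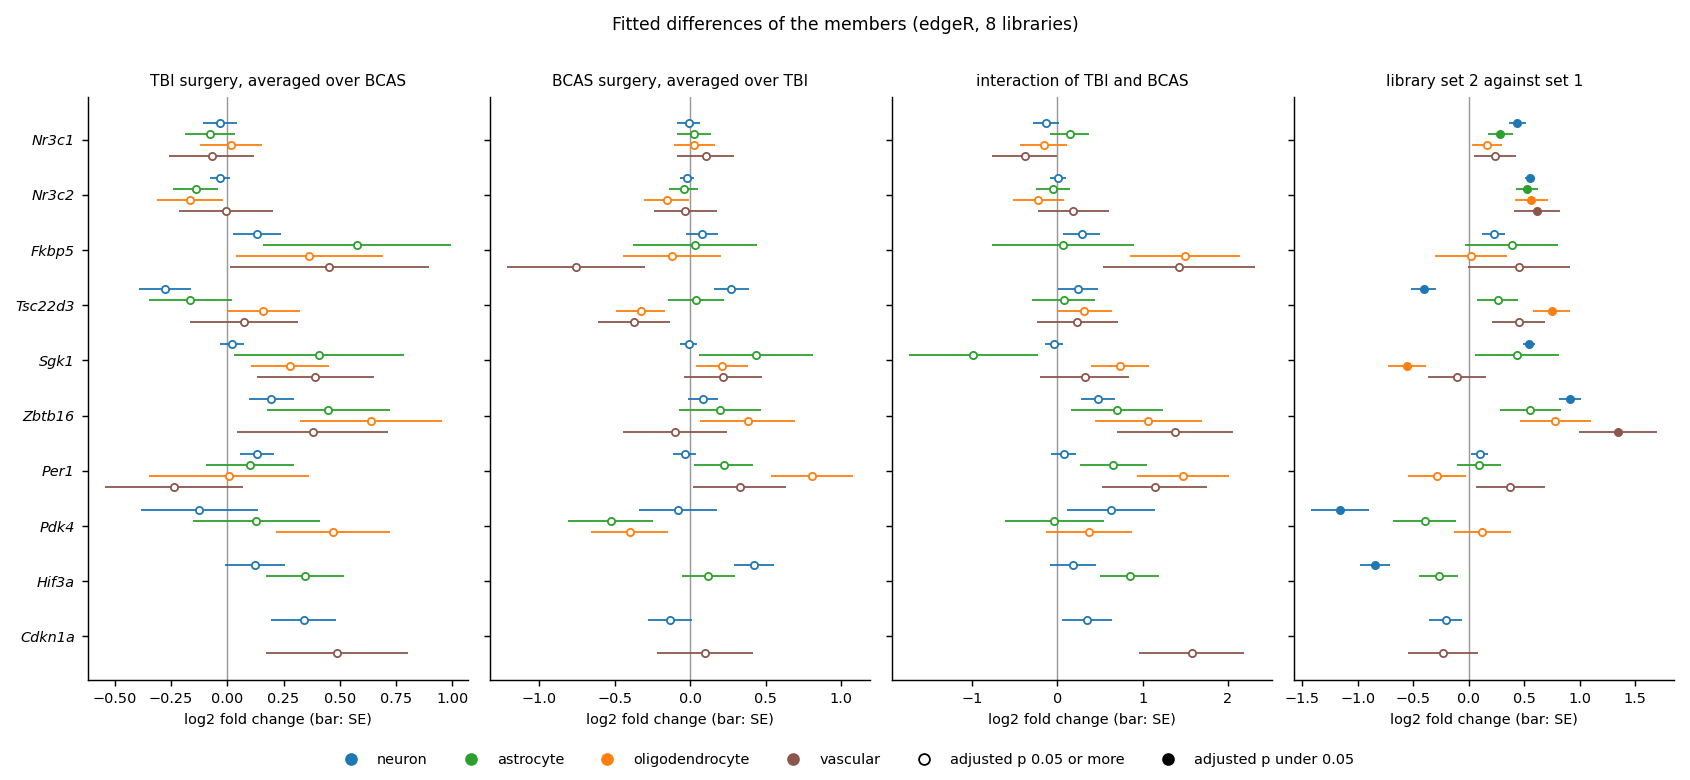
Fitted log2 differences of the members in the 4 main classes. Points are edgeR log2 fold changes and bars are standard errors, for TBI averaged over BCAS, BCAS averaged over TBI, their interaction, and library set 2 against set 1; filled points have an adjusted p under 0.05. The filled points are the 14 of the library set, and none belongs to a surgery contrast.

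**Figure D3:**
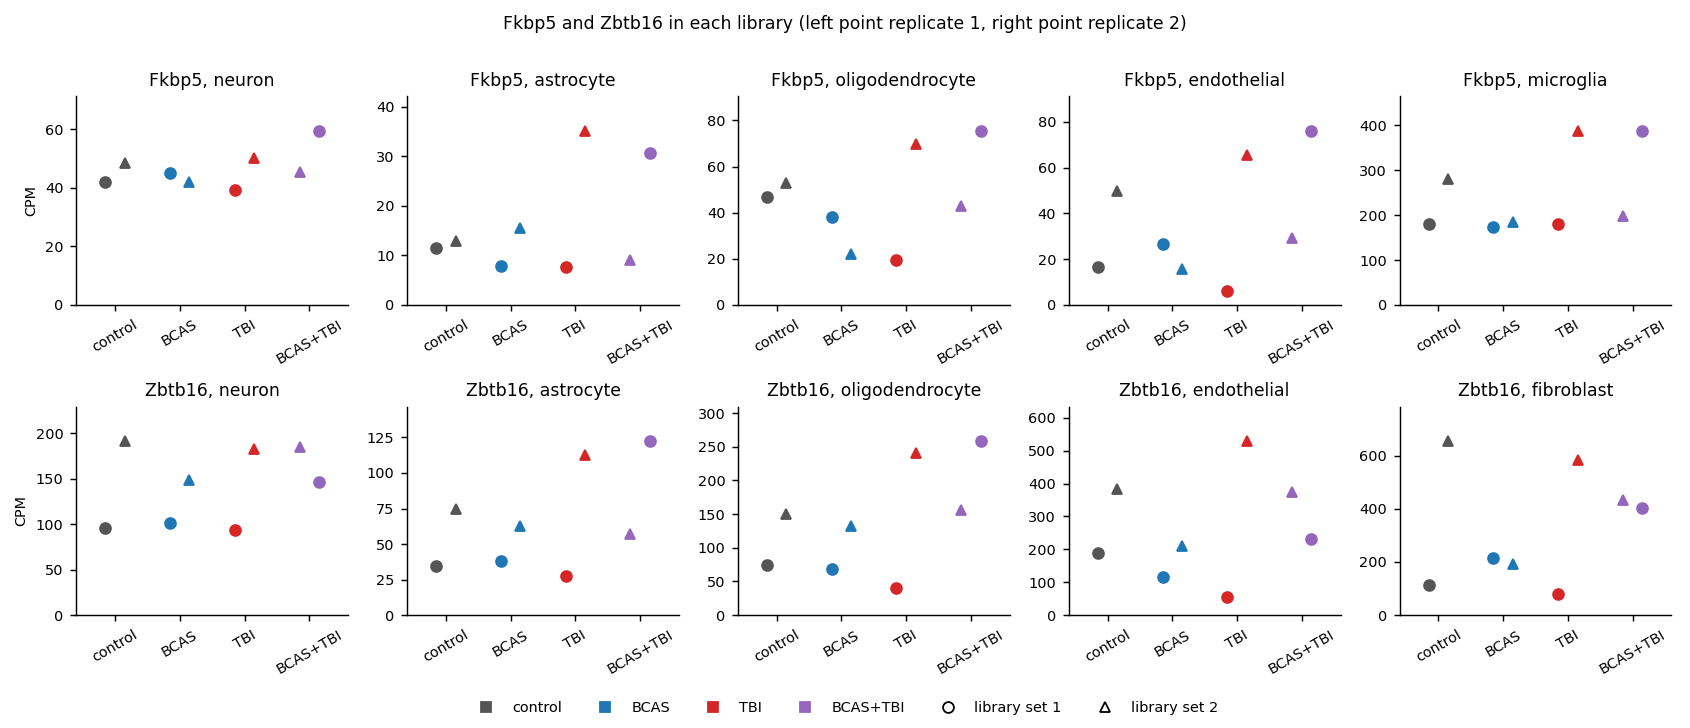
Fkbp5 and Zbtb16 by library. The vertical axis is CPM, the horizontal axis the 4 groups, and each point is 1 library, circles for library set 1 and triangles for set 2. In TBI the set 2 library was above the set 1 library in every class drawn, 529 against 53.9 CPM for Zbtb16 in endothelial nuclei.

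Fkbp5 and Zbtb16 differed widely between the libraries of one group, above all in TBI. Fkbp5 in oligodendrocytes was 46.8 and 53 CPM in control, 38.1 and 21.9 in BCAS, 19.7 and 69.8 in TBI, and 43.0 and 75.3 in BCAS+TBI. The TBI pair thus held one of the highest values and the lowest, so the groups overlapped. The interaction of TBI and BCAS for oligodendrocyte Fkbp5 was 1.50 on the log2 scale (SE 0.64) and did not pass (unadjusted p = 0.0321, adjusted p = 1.0). In astrocytes Fkbp5 was 11.4 and 12.9 CPM in control, 7.90 and 15.4 in BCAS, 7.56 and 35 in TBI, and 9.09 and 30.6 in BCAS+TBI, and each of these rested on at most 19 UMIs. In neurons it stayed between 39.1 and 59.4 CPM in all libraries, the highest being BCAS+TBI 2.

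Zbtb16 in oligodendrocytes was 73.8 and 151 CPM in control, 69.0 and 133 in BCAS, 40.9 and 241 in TBI, and 156 and 258 in BCAS+TBI. Both BCAS+TBI libraries were above both control libraries, with TBI 2 between them. The difference of BCAS+TBI from control for oligodendrocyte Zbtb16 was 1.02 (SE 0.43, unadjusted p = 0.0289, adjusted p = 1.0), and without BCAS+TBI 2 it was -0.15. In astrocytes Zbtb16 was 34.3 and 74.5 CPM in control, 38.2 and 62.5 in BCAS, 27.7 and 113 in TBI, and 56.8 and 122 in BCAS+TBI. Astrocyte Zbtb16 was the only member to pass when a library was left out: without BCAS+TBI 1 the log2 fold was 1.19 for TBI (SE 0.21, adjusted p = 0.0192), 1.78 for BCAS+TBI against TBI (SE 0.31, adjusted p = 0.0126) and 2.02 against control (SE 0.32, adjusted p = 0.00523). That fit represents BCAS+TBI by a single library, assumed to vary like the other groups.

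The levels of these 2 genes in the same libraries were compared between classes and with each other. For log2 CPM centred within library sets, astrocyte and oligodendrocyte Zbtb16 had r = 0.966 over 8 libraries (exact permutation within sets, p = 0.0139; pooled r = 0.971, exact permutation p = 0.000372, rho = 0.905, exact permutation p = 0.00456). Within set 1 that r was 0.983 and within set 2 it was 0.890, and it was 0.959 without the 2 libraries farthest from the median. Fkbp5 in neurons and oligodendrocytes had a centred r of 0.848 (exact permutation p = 0.0156), 0.862 in set 1 and 0.981 in set 2. Fkbp5 against Zbtb16 in oligodendrocytes had a centred r of 0.827 (exact permutation p = 0.0243), 0.926 in set 1 and 0.808 in set 2. These are a few of 204 relations computed, and none passed adjustment in the centred form, with a smallest adjusted p of 0.33. The pooled values also carry any difference between library sets, and their p are given unadjusted. Classes of a library share its tissue piece, its nuclei preparation and its free RNA, and the part of these in the relation was not tested.

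Per1 in oligodendrocytes gave the smallest p of any member in a surgery contrast. It was 28.8 and 33.1 CPM in control, 47.6 and 24.1 in BCAS, 19.7 and 19.0 in TBI, and 50.2 and 57.1 in BCAS+TBI, each from 6 to 28 UMIs. Both BCAS+TBI libraries were above the other 6, and both TBI libraries were the lowest. The fitted difference of BCAS+TBI from TBI in oligodendrocyte Per1 was 1.54 (SE 0.40, unadjusted p = 0.00108, adjusted p = 1.0), and BCAS averaged over TBI gave 0.81 (SE 0.27, unadjusted p = 0.0079). Libraries with BCAS surgery averaged 44.8 CPM and those without 25.1 CPM (exact permutation test, two-sided, p = 0.0857, and 0.111 within library sets). With 4 libraries against 4 that test cannot go below 0.0286, or 0.0556 within sets, and after adjustment over 80 such tests every p was 1.0. In no tested class did the CPM of a member separate the 4 libraries with a surgery from the 4 without. Over all genes, the libraries with TBI separated from those without for 0.695% in neurons, 1.48% in astrocytes, 1.74% in oligodendrocytes and 1.37% in vascular cells, and those with BCAS for 0.556, 1.41, 1.21 and 1.15%.

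**Figure D4:**
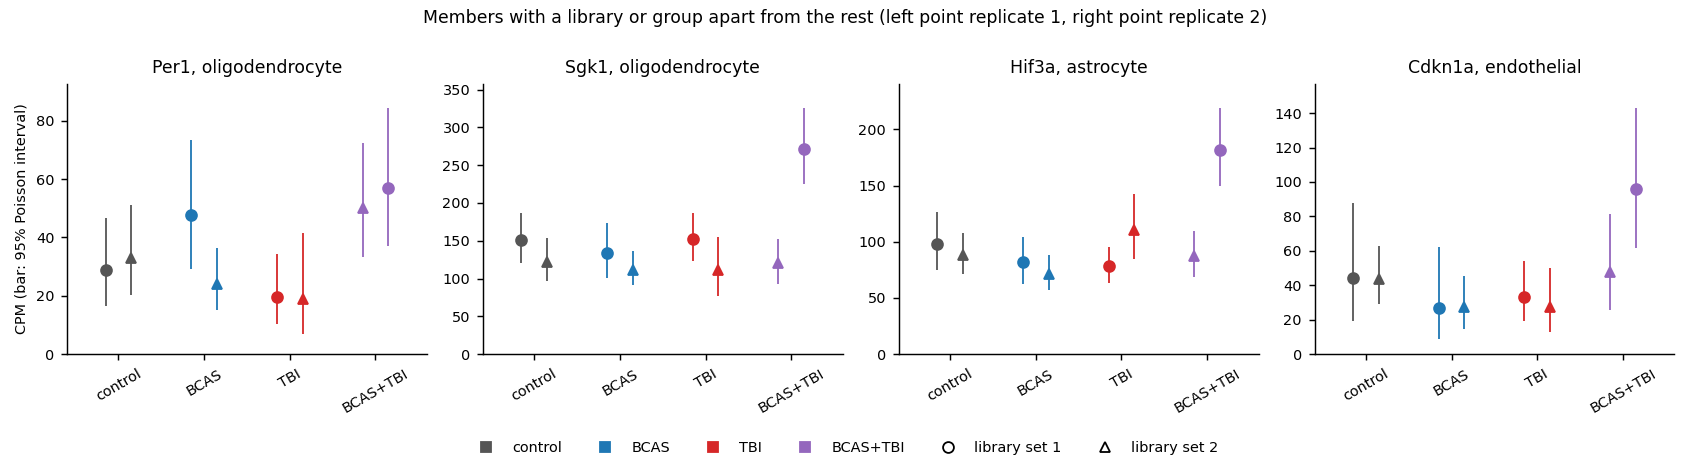
Per1 and Sgk1 in oligodendrocytes, Hif3a in astrocytes and Cdkn1a in endothelial nuclei, by group. The vertical axis is CPM, each point is 1 library, and bars are 95% Poisson intervals of the UMI count, which cover counting error only. BCAS+TBI 2 is the highest library in all 4 panels.

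The library BCAS+TBI 2 stood apart for 3 of the genes, Hif3a in astrocytes, Sgk1 in oligodendrocytes and Cdkn1a in vascular cells, and its partner BCAS+TBI 1 did not. Sgk1 in oligodendrocytes was 151 and 122 CPM in control, 133 and 112 in BCAS, 152 and 111 in TBI, and 120.2 and 272 in BCAS+TBI. Cdkn1a in endothelial nuclei was 44.5 and 43.5 CPM in control, 26.7 and 27.1 in BCAS, 33.2 and 27.2 in TBI, and 47.6 and 95.9 in BCAS+TBI. Both genes were thus highest in 1 BCAS+TBI library, while the other lay within or next to the range of the remaining groups. Cdkn1a in oligodendrocytes was 20.5 CPM in BCAS+TBI 2 and at most 4.91 CPM in the other 7 libraries, from 9 UMIs against at most 3. The interaction for astrocyte Hif3a was 0.85 (SE 0.35, unadjusted p = 0.0208) and that for vascular Cdkn1a 1.57 (SE 0.62, unadjusted p = 0.0242), neither of which passed. BCAS+TBI 2 also had the highest mitochondrial share, 2.77%, the highest ribosomal share, 0.915%, and the highest haemoglobin level in vascular cells, 33861 CPM, and the part of these in its member levels was not tested.

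Within classes, members passed between library sets and in no surgery contrast. Their log2 folds between sets ran from -1.16 to 1.35, and those of the interaction, none of which passed, from -0.98 to 1.57. Set 2 differed from set 1 in 14 of 35 pairs, 10 higher and 4 lower, and 40.2% of all class-gene pairs passed, so the share of members is near that of genes in general. By class, 7 of 10 members passed in neurons (59.0% of genes), 2 of 9 in astrocytes (32.6%), 3 of 8 in oligodendrocytes (25.6%) and 2 of 8 in vascular cells (16.6%). Nr3c2 was higher in set 2 in all 4 classes, by log2 folds of 0.55 in neurons (SE 0.05, adjusted p = 1.43e-05), 0.52 in astrocytes, 0.56 in oligodendrocytes and 0.62 in vascular cells. In neurons set 1 held 269.7 to 289.6 CPM of Nr3c2 and set 2 held 344 to 366, with no overlap. Zbtb16 was higher in set 2 in neurons (0.91, SE 0.10, adjusted p = 7.7e-05) and vascular cells (1.35, SE 0.35, adjusted p = 0.00779), and did not pass in oligodendrocytes (0.78, SE 0.32, adjusted p = 0.0582). Nr3c1 was higher in neurons (0.44) and astrocytes (0.28).

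Sgk1 and Tsc22d3 moved in opposite directions in neurons and oligodendrocytes. Sgk1 was higher in set 2 in neurons (0.54, SE 0.05, adjusted p = 4.7e-05) and lower in oligodendrocytes (-0.55, SE 0.17, adjusted p = 0.0168). Set 1 includes BCAS+TBI 2, which held 271.7 CPM of Sgk1 in oligodendrocytes, with the next library at 152.3 CPM. Tsc22d3 was lower in neurons (-0.41, SE 0.12, adjusted p = 0.0196) and higher in oligodendrocytes (0.75, SE 0.16, adjusted p = 0.00146). The difference between the classes was not tested. Neuronal Tsc22d3 was low, as given above, and oligodendrocyte markers in neurons were also lower in set 2 (187 to 522 CPM) than in set 1 (538 to 612 CPM), without overlap; their part in the Tsc22d3 difference was not tested. Neuronal Hif3a (-0.84) and Pdk4 (-1.16) were also lower, both at the low levels given above, where the part of free RNA was not tested. Fkbp5 and Per1 did not pass in any class.

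Other genes of the pathway were followed by lists. Among 22 further glucocorticoid targets, 19 could be compared between the 4 classes, and most of them were higher in astrocytes and in vascular cells. In astrocytes 13 were higher and 1 lower than the mean of the other classes, with a median log2 fold of 0.90 against -0.07 over all genes. Vascular cells had 13 higher and 4 lower (median 0.89, all genes -0.16), oligodendrocytes 7 and 11 (median -0.50, all genes -0.04), and neurons 1 and 15 (median -1.96, all genes -0.07). Over all genes tested, 29.5% were higher and 33.1% lower in astrocytes, 33.1% and 42.3% in vascular cells, 27.6% and 28.9% in oligodendrocytes, and 36.6% and 41.5% in neurons. Of 13 clock genes, 11 were higher and 1 lower in astrocytes (median 1.28), and 9 and 4 in vascular cells (median 0.64). In neurons 4 were higher and 6 lower (median -0.26), and in oligodendrocytes 1 and 11 (median -0.75). The lowest median of the clock genes was thus in oligodendrocytes, and that of the further targets in neurons. Per2 belongs to both lists.

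No gene of any list passed in a surgery contrast, in any class. For the further glucocorticoid targets, the median log2 fold of TBI averaged over BCAS was 0.01 in neurons (21 tested), 0.16 in astrocytes (17), 0.24 in oligodendrocytes (13) and -0.16 in vascular cells (15), beside medians of all genes between 0.00 and 0.02. Those of BCAS averaged over TBI were 0.05, -0.06, 0.03 and -0.09. The sign of the median thus differed between classes. At an unadjusted p under 0.05 in edgeR, 2, 2, 3 and 0 of these targets were counted for TBI in the same order of classes, where all genes gave 1023 of 23028, 540 of 10767, 482 of 9009 and 226 of 9278. For immediate early genes, which respond quickly to activity and stress, TBI gave 6 of 8 at that level in neurons (median log2 fold 0.37), 2 of 2 in astrocytes (0.98), 0 of 2 in oligodendrocytes (0.38) and 1 of 5 in vascular cells (0.31).

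Between library sets the lists did move. In neurons, 12 of 21 further glucocorticoid targets were lower in set 2 and 2 were higher (median -0.41, all genes -0.04, with 31.5% of genes lower and 27.5% higher). The first of these by p were Per2 (0.86), the metal-binding metallothioneins Mt1 (-1.62) and Mt2 (-1.34), the transcription factor Cebpd (-1.50), the growth inhibitor Ddit4 (-0.82) and Sesn1 (0.24). Mt1 was lower in set 2 in all 4 classes, by -1.25 in astrocytes, -1.10 in oligodendrocytes and -0.81 in vascular cells. Of 13 clock genes, 10 were higher in set 2 in neurons and none was lower (median 0.36), among them Tef (0.64), Npas2 (0.54), Per2, Nr1d2 (0.48), Hlf (0.38) and Clock (0.36). Tef was also higher in astrocytes (0.45), oligodendrocytes (0.77) and vascular cells (0.86).

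The chaperones, enzymes and coregulators of the receptor split in neurons, with 5 of 14 higher in set 2 and 8 lower. Of all genes tested in neurons, 27.5% were higher and 31.5% lower, which holds for each count in this paragraph. Among the higher ones were the coactivators Ncoa2, by 0.57, and Ncoa1, by 0.45, and the corepressor Ncor1, by 0.35. The chaperone Hsp90ab1 (-1.07) and Bag1 (-0.83) were among the lower ones. Of 8 immediate early genes in neurons, 3 were lower in set 2 and none was higher, namely Junb (-0.87), Jun (-0.93) and Ier2 (-0.90). Among 7 targets of p53 tested there, Mdm2 (0.24) and Zmat3 (0.25) were higher and Phlda3 (-1.18) and Bax (-0.41) lower. Of the lists that mark neurons of other regions, which a cube of tissue could include in varying amounts, striatal markers had 0 of 5 passing in neurons, hippocampal markers 1 of 4 (Spink8, -1.18) and markers of thalamus and midline 3 of 5 (Rora 0.57, Lef1 0.41, Prkcd -0.49). Over all genes in neurons 59.0% passed, so no list of a region passed more often than genes in general beyond what so few genes can show. The part of the region sampled in the set differences was not tested.

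The genes whose levels ran most parallel to each member were taken as the highest Pearson correlations of log2(CPM + 1) over 58 points, each 1 class in 1 library with at least 20 nuclei, among 8713 genes. Points of one library share its depth and free RNA, so these values only describe likeness. For the receptors they were Gnb1 (0.733) and Cmss1 (0.722) for Nr3c1, and Gulp1 (0.835) and Plcb4 (0.805) for Nr3c2. Fkbp5 was most like Evl (0.824) and Colgalt1 (0.768), Sgk1 like Ralgapa2 (0.797) and Snx24 (0.792), and Zbtb16 like Ptprr (0.800) and Tjp1 (0.797). Tsc22d3 ran with Baz2b (0.751) and Lama2 (0.745), and Per1 with Cd59a (0.660) and Pdxk (0.657). The class-restricted genes ran with known markers of those classes: Hif3a with Itih3 (0.786) and Lgi4 (0.771), and Cdkn1a with Rasip1 (0.765) and the endothelial junction gene Cldn5 (0.762). Pdk4 was most like Clmn (0.736) and Tulp4 (0.736).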

How the data were processed

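Nuclei of 8 frozen forebrain samples were measured by 10x 3′ sequencing. The deposited values are raw UMI counts per gene and barcode. Per the file headers they come from Cell Ranger 7.0.0, and the submitters' processing notes name GRCm38, mm10 and Seurat. The aligner settings and annotation release are not given in the sources used here. A barcode was removed if it had fewer than 500 UMIs, fewer than 300 genes or over 5% mitochondrial UMIs (4922 in all). Each nucleus was assigned by its share of marker UMIs, with at least 3 markers and at least 3 marker UMIs. The 4181 nuclei that passed a gate but also reached an exclusion share of another class, with more than 1 of its markers, were left out as possible doublets. That share was lower than the gate for astrocyte, oligodendrocyte and vascular markers and equal to it for the others. No doublet caller was run. The gate thresholds and the finer classes were chosen after the counts had been seen.

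Counts were summed per class and library and tested with edgeR 4.0.16 (quasi-likelihood, TMM, minimum count 10; R 4.3.3) over all 8 libraries, with library set as a term. The sets split the libraries at the largest gap in log total UMIs. P-values were adjusted by Benjamini-Hochberg over the class-gene pairs of the 4 main classes, or over genes for tests between classes, and the threshold was 0.05. The titles call the libraries biological replicates and name no animals, so p-values measure the spread between these libraries. Intervals and limits cover counting error only, with 3 UMIs as the limit that a count of 0 allows. The fits of TBI averaged over BCAS, of BCAS averaged over TBI and of astrocytes against the other main classes were run on simulated data. The simulated counts held no difference between library sets, and the other tests were not run on them. Alternatives were DESeq2 1.42.0, other filters, gates and terms, and leaving out each library. All 10 members are named, list genes where they passed (at most 6 per list, class and contrast, of which 1 is not reported here), and the 2 most alike genes per member. The members and lists were chosen with earlier results of these data known.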

Additional observations from a re-analysis of the deposited data

Results flagged for a closer look

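Each group holds 2 libraries, so single libraries were compared with all 8 of a class by Dixon's gap test. It marked 6 of 52 gene-by-class series. The limit of that test assumes independent normal values from a single population. These series mix library sets, rest on few UMIs in part, and overlap for vascular and endothelial nuclei, so no chance rate is given. BCAS+TBI 2 was far above the next library for Hif3a in astrocytes (181.8 CPM, next 110.7), Sgk1 in oligodendrocytes (271.7 CPM, next 152.3), Cdkn1a in vascular cells (67.8 CPM, next 37.44) and Cdkn1a in the endothelial nuclei among them (95.91 CPM, next 47.59). TBI 1 was far below the next library for Per1 in vascular cells (13.69 CPM, next 47.48), from 8 UMIs, and BCAS 1 was far above for Nr3c1 in fibroblasts (359.3 CPM, next 251.6). TBI 1 and BCAS+TBI 2 also held the highest haemoglobin levels in vascular cells, 29508 and 33861 CPM, and BCAS 1 had 28 fibroblasts. In TBI 1 and BCAS+TBI 2, nuclei with many UMIs gave most of the vascular sum, as described above. The part of these in the values was not tested.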

How the results depend on the processing

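Counts over all class-gene pairs of the surgery contrasts depended on the settings, and the cause was not tested. TBI averaged over BCAS gave 6 pairs, but 2 with DESeq2, 71 without a filter, 0 with a minimum count of 30, without the set term or with a replicate block, 19 with a looser gate, and 2 to 32 with 1 library left out. BCAS averaged over TBI gave 1, but 35 without a filter, 2 with a stricter gate, 2 to 25 with 1 library left out, and 0 with DESeq2, a looser gate, no set term, a replicate block, thinned counts or high-UMI nuclei removed. The interaction gave 17, but 3 with DESeq2, 176 without a filter, 35 when adjusted within each class, 1 and 10 with a stricter and a looser gate, 10 with nuclei of at least 1000 UMIs, 11 when thinned, 3 to 91 with 1 library left out, and 0 with a minimum count of 30, no set term, a replicate block or high-UMI nuclei removed. BCAS+TBI against TBI gave 3, but 29 without a filter, 1 to 27 with 1 library left out, and 0 with DESeq2, a minimum count of 30, no set term, a replicate block or a stricter gate. BCAS+TBI against control gave 1, but 29 without a filter, 2 when adjusted within each class or with a stricter gate, 1 to 14 with 1 library left out, and 0 with a minimum count of 30, no set term or a replicate block.

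No member passed in these contrasts under any of the settings, except astrocyte Zbtb16 without BCAS+TBI 1, which made the count 0 to 1 with 1 library left out for BCAS+TBI relative to TBI, for BCAS+TBI relative to control and for TBI. Of 20 member results with an unadjusted p under 0.05, 3 of 394 values changed sign: Hif3a in astrocytes, BCAS+TBI against TBI, was -0.0214 without TBI 1 and -0.122 without BCAS+TBI 2 (-0.122 to 1.08 over libraries left out), and Zbtb16 in oligodendrocytes, BCAS+TBI against control, was -0.15 without BCAS+TBI 2 (-0.15 to 2.12). The exact permutation tests had 0 members under an unadjusted p of 0.05, and 0 to 2 with 1 library left out. Members called between library sets numbered 14, 9 with DESeq2, and 12 to 14 with 1 library left out. Of the 251 values of these, 37 kept their direction and lost the call, most often Nr3c1 in astrocytes and Nr3c2 in vascular cells. Of 554 values of members between the 4 main classes 17 lost the call and none changed sign. The finer classes gave 44779 calls over all genes, 72967 without a filter and 22800 with a minimum count of 30.

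The replicate numbers do not pair the libraries. Deviations of same-numbered libraries correlated at 0.205 to 0.727 among control, BCAS and TBI and at -0.287 to -0.792 with BCAS+TBI. Depth limits the small classes most: oligodendrocyte Per1 rests on 6 to 28 UMIs per library and astrocyte Fkbp5 on 6 to 19.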
